A study of Homo sapiens with 6 samples.

Results

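The genes described here encode the enzymes that place or remove methyl and acetyl groups on the lysines of histones. The rule that defines them uses gene names and biotype, and no measured value, in a table of 58735 genes: protein-coding genes of the KMT, KDM, SETD, EHMT, HDAC, SIRT and KAT series, plus MEN1, EZH1, EZH2, DOT1L, EP300 and CREBBP. The rule found 71 genes, and 68 of them had enough counts to be tested. KDM4E, KDM4F and KDM5D were below the filter on low counts and are not described further.

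Histone tails carry marks that are written by methyltransferases and acetyltransferases, removed by demethylases and deacetylases, and read by other chromatin proteins. Methylation of lysine 4 of histone H3 (H3K4) and acetylation mark active promoters and enhancers, while methylation of lysines 9 and 27 (H3K9, H3K27) marks silent chromatin. Most of these enzymes work inside large complexes, and several of them also modify proteins other than histones, among them tubulin and p53.

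RNA was measured in RPE-1, an established human line from retinal pigment epithelium, in a version that carries GFP on CETN2, a centriole protein, and a PLK4 gene that rtTA switches on when doxycycline is given (PLK4 is the kinase that starts centriole duplication). The siSON group (3 libraries) received an siRNA against SON, a nuclear speckle protein that assists pre-mRNA splicing, and the siControl group (3 libraries) received a scramble siRNA, both delivered by lipid transfection. Both groups were given doxycycline at 1 µg/mL, so that every library comes from cells with PLK4 induced and none from cells without induction. The labels do not say how long the cells were treated, whether the line is 1 clone, or whether the libraries of a group came from separate cultures, so the p-values measure the spread between these libraries, which may be technical. The comparison addresses which transcripts change in abundance after SON knockdown. The SON protein itself is known to bind menin, the product of MEN1, and KMT5A and HDAC6 are among the transcripts earlier described as depending on SON for splicing.

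Library totals ran from 54572365 to 69764836 counts. SON had 295, 313 and 284 CPM (read counts relative to the library total, after TMM scaling) in the siControl libraries and 67.96, 69.96 and 65.0 CPM in the siSON libraries. Its log2 fold change, siSON over siControl, was -2.14 (SE 0.06, edgeR adjusted p 6.78e-10). The knockdown was therefore present in each library labelled siSON. Of 10 retinal pigment epithelium markers, TYR and TTR had no counts in any library and RPE65 and RLBP1 were below the filter. OTX2, MITF and BEST1 were measured and higher in siSON, and SERPINF1 was lower. PMEL and LRAT passed the filter only through the siControl libraries (130 to 158 and 29 to 32 counts), so no call is given for them. In siSON they had 9 to 13 and 3 to 5 counts. The summed level of these 10 markers was 52.3 to 54.2 CPM in siControl and 74.4 to 83.6 CPM in siSON. Of 5 markers of other cell types, PTPRC, PECAM1 and TUBB3 were tested and lower, EPCAM and ALB were below the filter, and the sum was 11.8 to 12.6 CPM in siControl and 5.196 to 5.93 CPM in siSON. The part of such shifts in the results below was not tested, and in bulk RNA fewer cells of a kind and less RNA per cell cannot be told apart. Within each group the library numbered 1 stood apart from the other two: chi-square per degree of freedom was 18.3 to 26.1 for pairs that include it and 7.16 and 7.18 for the pairs that do not. Of the genes described below, 51 were called changed without siControl replicate 1 and 53 without siSON replicate 1, where 53 were called with all 6 libraries.

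Of the 68 genes tested, 53 were called changed (77.9%; edgeR quasi-likelihood test, adjusted p under 0.05 over all genes), against 71.7% of all 16591 genes tested and 77.4% of protein-coding genes. The share of changed enzymes was thus close to that of protein-coding genes at large. Higher genes numbered 31 (45.6%, against 35.2% of all genes and 40.3% of protein-coding genes), and lower genes numbered 22 (32.4%, against 36.5% and 37.1%). Scaling by library size alone gave 23 higher and 27 lower, and it moved the median log2 fold change of all genes by -0.20. Changes of at least 2-fold were found in 12 of the 68 (17.6%), where 29.3% of all genes and 27.3% of protein-coding genes passed both limits. Under TMM scaling these 12 were divided evenly, 6 higher (8.82%, against 8.72% of all genes and 8.62% of protein-coding genes) and 6 lower (8.82%, against 20.5% and 18.7%). Over the 14 alternatives the lowest log2 values of CREBBP, HDAC10, SETD5 and KMT5A were 0.89, 0.78, 0.97 and 0.99. Those of KDM8, KAT2A, HDAC11, HDAC6 and EZH2 were -1.19, -1.12, -1.06, -1.05 and -1.03. The highest values of KDM6B and KDM7A were 1.06 and 1.08, and the 6 falls stayed at least 2-fold. The groups did not overlap for 52 members (76.5%), against 75.1% of all genes and 79.9% of protein-coding genes. The members' median log2 fold change was 0.10, and that of all genes tested was -0.03.

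**Figure D1:**
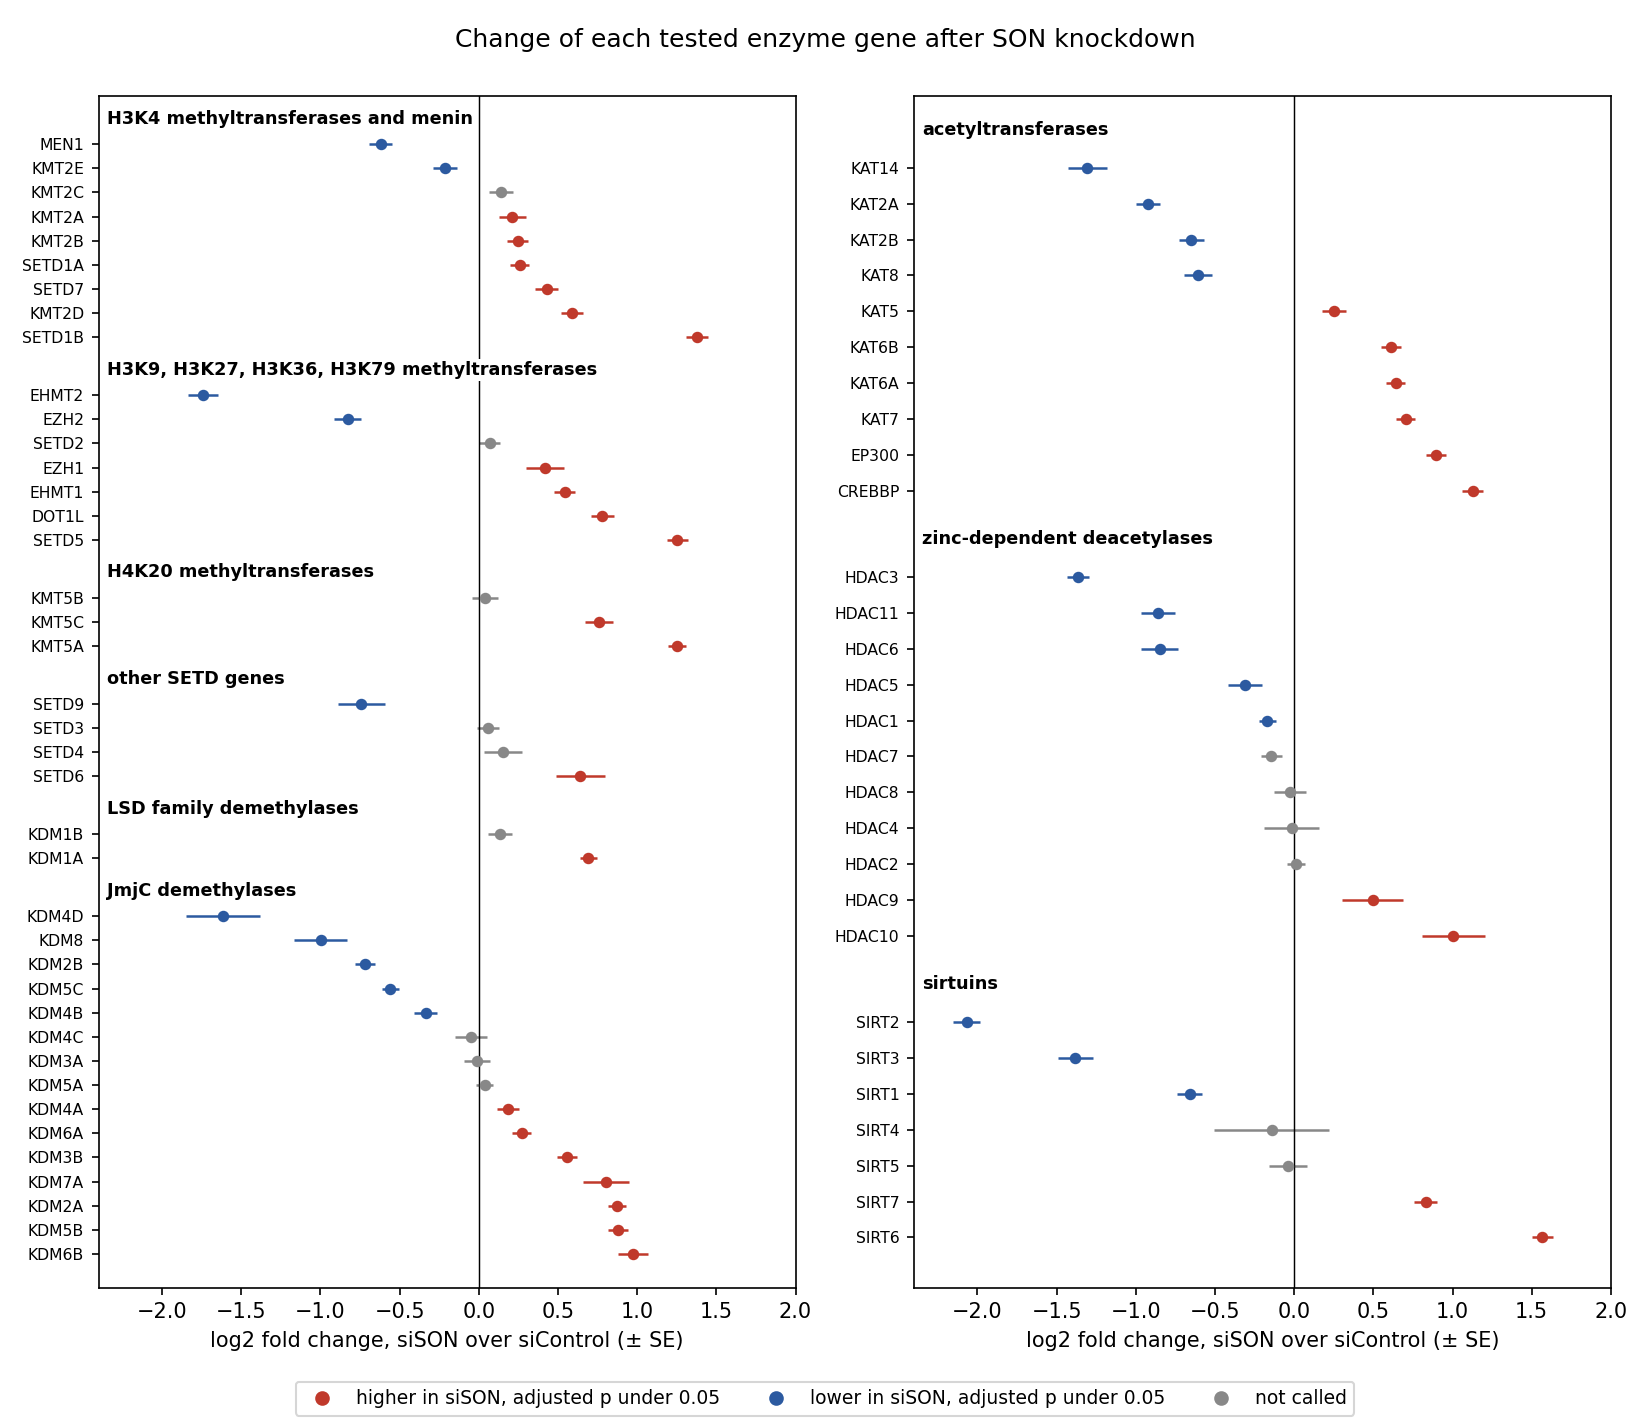
Log2 fold change of siSON over siControl for the 68 tested genes, by enzyme class, with bars for the standard error and 3 libraries in each group. Red and blue points passed an adjusted p under 0.05; nearly every class holds genes on both sides of 0, from SIRT2 at -2.07 to SIRT6 at 1.57.

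The 6 genes that fell at least 2-fold were SIRT2, EHMT2, KDM4D, SIRT3, HDAC3 and KAT14, and the 6 that rose at least 2-fold were SIRT6, SETD1B, SETD5, KMT5A, CREBBP and HDAC10. KDM8 (-0.997) and KDM6B (0.97) lay just under the 2-fold limit. The plot of the 12 genes by library shows no gene whose siControl and siSON libraries overlap. This is no separate support, because the same values were used to pick these genes.

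**Figure D2:**
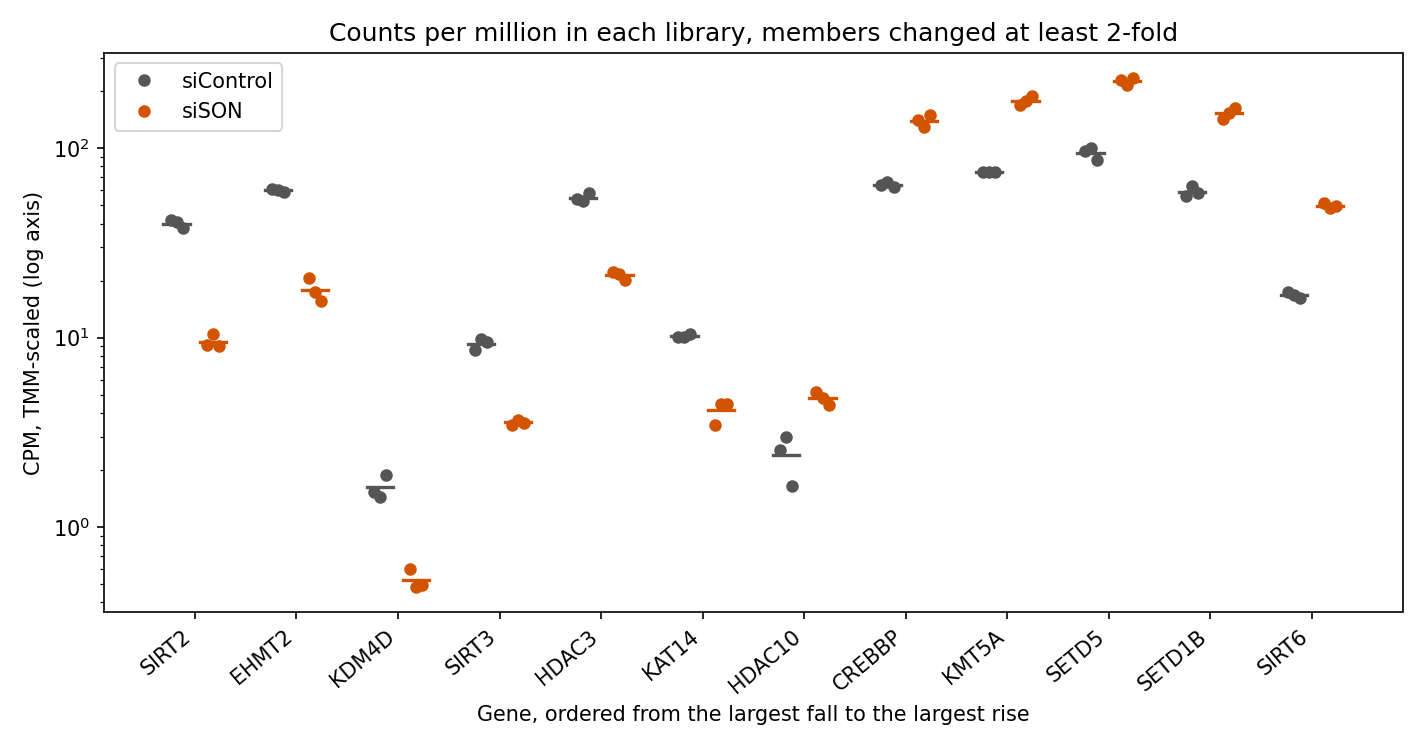
CPM of each library on a log axis for the 12 genes called changed at least 2-fold, with siControl in grey, siSON in orange and a short line at each mean of 3 libraries. SIRT2 goes from a mean of 39.98 to 9.53 CPM and SIRT6 from 16.8 to 49.7 CPM. No gene has overlapping groups, but the genes were picked on these same values.

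Among the 8 H3K4 methyltransferase genes and MEN1, taken as 1 class, 6 of 9 rose and 2 fell (KMT2E and MEN1). Their median log2 fold change was 0.24. The share called was 88.9%, against 77.4% of protein-coding genes, and the share higher was 66.7%, against 40.3%. Under library-size scaling 3 were higher and 2 lower. KMT2A to KMT2D, SETD1A and SETD1B are the catalytic subunits of the COMPASS family of complexes. SETD1B (ENSG00000139718; GRCh38 chromosome 12, 121804180 to 121832584 on the plus strand, with 17 exons) had 55.6, 63.2 and 58.0 CPM in the siControl libraries and 143, 153 and 163 CPM in the siSON libraries. All 3 siSON libraries were more than 2-fold above all 3 siControl libraries, with a log2 fold change of 1.38 (SE 0.07, edgeR adjusted p 1.83e-08). Its share of the class, in CPM per kilobase of annotated exon, was 13.5% in siControl and 27.03% in siSON. It went from 7.09 to 18.4 CPM per kilobase, below MEN1 (8.98), SETD1A (8.19), KMT2D (7.31) and KMT2E (7.20) in siControl and above all of them in siSON. Its paralog SETD1A rose far less, from 56.0 ± 1.87 to 66.9 ± 2.28 CPM (± SD, n = 3 per group; log2 fold change 0.26, adjusted p 0.00195).

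KMT2D, which writes H3K4 methylation at enhancers, rose from 149.8 ± 13.1 to 225 ± 14.1 CPM (± SD, n = 3 per group; log2 fold change 0.59, edgeR adjusted p 1.72e-05). SETD7, a monomethyltransferase that also acts on non-histone proteins, rose by 0.43 on the log2 scale (adjusted p 0.000301). KMT2A, KMT2B and SETD1A rose only slightly, by 0.21, 0.24 and 0.26, and these 3 calls were lost under library-size scaling and cyclic loess normalization. The KMT2A groups overlapped, and without siSON replicate 3 its log2 fold change was 0.12 (adjusted p 0.169). Its call was kept only when siSON replicate 1 was left out; without any one of the others its value was 0.12 to 0.25. KMT2C, the closest paralog of KMT2D, had a log2 fold change of 0.14 and was not called (adjusted p 0.120), except without siSON replicate 1 (0.21, adjusted p 0.0183). KMT2E, a relative without clear methyltransferase activity, fell by 0.21 (adjusted p 0.0265), and without siSON replicate 1 its value was -0.12 (adjusted p 0.0989) and without siControl replicate 2 it was -0.19 (adjusted p 0.0837).

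MEN1 encodes menin, the scaffold that joins KMT2A and KMT2B complexes to chromatin. The gene (ENSG00000133895; chromosome 11, 64803510 to 64811294, minus strand, 9 exons) had 37.7, 38.4 and 38.2 CPM in siControl and 25.4, 26.0 and 22.9 CPM in siSON. The siControl libraries lay within 1 CPM of each other and well above all siSON libraries. MEN1 thus fell to 65.0% of the control level, a log2 fold change of -0.62 (SE 0.07, edgeR adjusted p 1.10e-05), while the 2 methyltransferases that it serves, KMT2A and KMT2B, had log2 fold changes of 0.21 and 0.24.

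The core subunits shared by COMPASS complexes were measured as well. WDR5, RBBP5 and ASH2L, which form the platform that activates the catalytic subunits, rose by 0.69, 0.48 and 0.43 on the log2 scale (edgeR adjusted p 3.76e-06, 7.68e-05 and 2.64e-05). WDR5 had 30.3, 31.3 and 32.0 CPM in siControl and 46.9, 50.8 and 53.9 CPM in siSON. DPY30, the smallest core subunit, went the other way, from 30.3 ± 0.458 to 21.2 ± 1.52 CPM (± SD, n = 3 per group; log2 fold change -0.52, adjusted p 7.75e-05); it shares its span with MEMO1 on the same strand. PAGR1, a subunit of the KMT2C and KMT2D complexes, had the largest fall, from 2.12, 2.74 and 2.88 CPM to 0.827, 0.814 and 0.905 CPM (log2 fold change -1.60, adjusted p 2.08e-05), and it overlaps 2 unnamed genes on its strand. All 12 subunits of this list were called (77.4% of protein-coding genes were), 6 higher and 6 lower. Under library-size scaling 5 were higher and 6 lower.

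The enzymes of repressive and elongation-linked methylation divided within paralog pairs. EHMT1 and EHMT2 form the heterodimer that writes mono- and dimethylation of H3K9. EHMT2 (ENSG00000204371; chromosome 6, 31879759 to 31897687, minus strand, 28 exons; overlapping EHMT2-AS1 on the other strand) had 61.1, 60.3 and 58.7 CPM in siControl and 20.7, 17.5 and 15.6 CPM in siSON. It kept 29.8% of the control level, with a log2 fold change of -1.74 (SE 0.09, edgeR adjusted p 3.42e-08). EHMT1 rose from 55.8 ± 4.24 to 81.3 ± 2.36 CPM (± SD, n = 3 per group; log2 fold change 0.54, adjusted p 2.02e-05). The groups overlapped for neither gene.

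EZH1 and EZH2 are the alternative catalytic subunits of Polycomb repressive complex 2, which methylates H3K27. EZH2 fell from 47.8 ± 3.67 to 26.9 ± 2.58 CPM (± SD, n = 3 per group; log2 fold change -0.83, edgeR adjusted p 5.63e-06). EZH1 had 24.3, 20.5 and 19.6 CPM in siControl and 32.5, 29.8 and 23.6 CPM in siSON, and was called higher (log2 fold change 0.42, adjusted p 0.00955). The EZH1 groups overlapped, because the lowest siSON library was below the highest siControl library, and the call was lost under library-size scaling (0.22, adjusted p 0.126).

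The other subunits of the complex also went both ways. EED, which binds the finished mark, fell from 18.5 ± 1.18 to 14.7 ± 1.34 CPM (± SD, n = 3 per group; log2 fold change -0.33, edgeR adjusted p 0.00768). SUZ12, which holds the core together, rose from 57.8 ± 2.66 to 94.2 ± 6.48 CPM (log2 fold change 0.70, adjusted p 2.36e-06). JARID2, an accessory subunit that helps to recruit the complex, rose most, from 39.6, 34.6 and 34.8 CPM to 130.0, 110.1 and 102 CPM (log2 fold change 1.65, adjusted p 4.51e-08). EPOP, another accessory subunit, fell from 8.04 ± 1.03 to 4.26 ± 0.411 CPM (log2 fold change -0.92, adjusted p 7.21e-05). Of the 10 subunits listed, 3 were called higher and 4 lower (70% called, against 77.4% of protein-coding genes). Under library-size scaling 3 were higher and 7 lower.

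SETD5 had the smallest adjusted p of the 7 genes of this class. In CPM per kilobase it went from 8.75 to 20.9, below EZH2 (10.6) in siControl and above it (5.96) in siSON. The gene (ENSG00000168137; chromosome 3, 9397615 to 9479240, plus strand, 23 exons; overlapping THUMPD3-AS1 on the other strand) had 96.6, 101 and 86.6 CPM in siControl and 229, 214 and 233 CPM in siSON. All siSON libraries were above 2-fold of all siControl libraries (log2 fold change 1.25, SE 0.07, edgeR adjusted p 2.50e-08). DOT1L, the only known writer of H3K79 methylation, rose from 38.2 ± 3.52 to 65.5 ± 1.38 CPM (± SD, n = 3 per group; log2 fold change 0.78, adjusted p 2.23e-06). SETD2, which trimethylates H3K36 behind elongating polymerase, had 76.5 ± 3.63 and 80.2 ± 5.06 CPM and was not called (log2 fold change 0.068, SE 0.06, adjusted p 0.360).

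Of the 3 H4K20 methyltransferases, 2 rose and 1 was not called (66.7% called, against 77.4% of protein-coding genes). KMT5A places the first methyl group on lysine 20 of histone H4 and is tied to mitosis and chromosome condensation. The gene (ENSG00000183955; chromosome 12, 123383773 to 123409358 on the plus strand, with 8 exons) had 74.9, 75.2 and 74.4 CPM in siControl and 169, 178 and 188 CPM in siSON. The siControl libraries differed by less than 1 CPM, and the siSON libraries were all more than 2-fold higher (log2 fold change 1.25, SE 0.05, edgeR adjusted p 8.70e-09). KMT5C, which adds further methyl groups, rose from 8.71 ± 0.566 to 14.7 ± 0.528 CPM (± SD, n = 3 per group; log2 fold change 0.76, adjusted p 1.53e-05). Its partner in that step, KMT5B, had 31.8 ± 2.94 and 32.7 ± 1.64 CPM and was not called (log2 fold change 0.040, SE 0.08, adjusted p 0.676). The summed level of the 3 genes per kilobase was 21.5 to 22.3 in siControl and 43.7 to 48.1 in siSON.

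The remaining SETD genes mostly modify proteins other than histones, or have no settled substrate. SETD9 had 5.23, 4.81 and 5.09 CPM in siControl and 2.64, 2.81 and 3.62 CPM in siSON (log2 fold change -0.74, edgeR adjusted p 0.000808); it overlaps MIER3 on the other strand. SETD6, a methyltransferase of the NF-kappaB subunit RELA, rose by 0.64 (adjusted p 0.00377) and overlaps CNOT1 on the other strand. SETD3, which methylates a histidine of actin, had 51.0, 56.1 and 58.9 CPM in siControl and 55.3, 57.9 and 59.5 CPM in siSON, so that the groups overlapped (log2 fold change 0.057, adjusted p 0.469). SETD4 was not called either (0.15, adjusted p 0.274), but was called higher under cyclic loess normalization (0.37, adjusted p 0.0198).

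Of the 17 demethylase genes tested, 8 rose, 5 fell and 4 were not called. Under library-size scaling the JmjC genes gave 5 higher and 8 lower, in place of 7 and 5, and the LSD pair 1 higher, so that the larger direction turned. Of all protein-coding genes, 40.3% were higher and 37.1% lower. KDM1A (LSD1) removes methyl groups from H3K4 with FAD as its cofactor and works in the CoREST and NuRD complexes. The gene (ENSG00000004487; chromosome 1, 23019443 to 23083689, plus strand, 19 exons; with MIR3115 on the same strand and AL031428.1 and MIR4419A on the other) had 96.7, 96.2 and 102 CPM in siControl and 151, 163 and 162 CPM in siSON. All siSON libraries exceeded all siControl libraries (log2 fold change 0.69, SE 0.05, edgeR adjusted p 5.32e-07). Its paralog KDM1B had a log2 fold change of 0.13 and was not called (adjusted p 0.134), although its groups did not overlap.

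The other demethylases contain a JmjC domain and use iron and 2-oxoglutarate. KDM2A and KDM2B, paralogs that bind unmethylated CpG islands and act on H3K36, moved in opposite directions. KDM2A had 77.8, 85.5 and 80.5 CPM in siControl and 146, 144 and 155 CPM in siSON (log2 fold change 0.87, SE 0.06, edgeR adjusted p 1.43e-07). KDM2B, a part of a variant Polycomb repressive complex 1, fell from 59.9 ± 3.26 to 36.4 ± 0.596 CPM (± SD, n = 3 per group; log2 fold change -0.72, adjusted p 1.32e-06); it shares its span with RNF34 on the other strand. The KDM5 enzymes, which remove H3K4 trimethylation, divided in the same way. KDM5C, which had the highest level per kilobase of the JmjC genes in siControl (16.1 CPM per kilobase) but lay below KDM2A and KDM3B in siSON (10.9 against 14.3 and 13.98), had 136, 142 and 142 CPM in siControl and 89.8, 98.4 and 97.1 CPM in siSON (log2 fold change -0.56, SE 0.06, adjusted p 3.58e-06). KDM5B rose from 104 ± 7.20 to 192 ± 6.76 CPM (log2 fold change 0.88, adjusted p 2.19e-07). KDM5A was not called under TMM scaling (0.037, adjusted p 0.550) but was called lower under library-size scaling (-0.16, adjusted p 0.0238) and cyclic loess normalization (-0.22, adjusted p 0.00271).

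The H3K27 demethylases KDM6A and KDM6B both rose, by 0.27 (edgeR adjusted p 0.00188) and 0.97 (adjusted p 2.79e-06) on the log2 scale. The KDM6A call was lost under library-size scaling (0.073, adjusted p 0.295). KDM7A, which acts on H3K9 and H3K27, rose by 0.80 (adjusted p 0.000455). Among the H3K9 demethylases, KDM3B rose by 0.56 (adjusted p 1.38e-05) and KDM3A was not called (-0.012, adjusted p 0.898). KDM4B fell by 0.34 (adjusted p 0.00147), and KDM4C was not called (-0.050, adjusted p 0.675). KDM4A was called higher (0.19, adjusted p 0.0341), with a value of -0.011 under library-size scaling (adjusted p 0.901), and its call was lost without siSON replicate 2 (0.14, adjusted p 0.123) or any one siControl library (0.15 to 0.18). Under library-size scaling KDM3A and KDM4C were called lower (-0.21, adjusted p 0.0347; -0.25, adjusted p 0.0449).

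The lowest JmjC genes fell most. KDM4D (ENSG00000186280; chromosome 11, 94973681 to 94999518 on the plus strand, with 3 exons) had 107, 92 and 141 counts in siControl and 35, 25 and 25 counts in siSON, or 1.53, 1.45 and 1.89 CPM against 0.603, 0.485 and 0.492 CPM. On the log2 scale the change was -1.62 (SE 0.23, edgeR adjusted p 7.57e-05), with an SE wider than that of the better counted members. KDM4D has close copies in KDM4E and KDM4F, and how reads that fit several copies were treated is not given in the sources used here. KDM8 fell from 2.98 ± 0.317 to 1.49 ± 0.121 CPM (± SD, n = 3 per group; log2 fold change -0.997, adjusted p 0.000241).

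All 10 acetyltransferase genes were called (77.4% of protein-coding genes were), 6 higher and 4 lower, and under library-size scaling 5 were higher and 4 lower. The pair CREBBP and EP300, which acetylate H3K27 at enhancers, rose. CREBBP (ENSG00000005339; chromosome 16, 3725054 to 3880726, minus strand, 31 exons; overlapping AC007151.1 on the other strand) had 63.8, 66.3 and 62.1 CPM in siControl and 142, 129 and 149 CPM in siSON (log2 fold change 1.13, SE 0.06, edgeR adjusted p 5.02e-08). EP300 rose from 60.3 ± 1.196 to 112 ± 7.81 CPM (± SD, n = 3 per group; log2 fold change 0.90, adjusted p 2.04e-07). For each gene all siSON libraries lay far above all siControl libraries.

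Another paralog pair, KAT2A (GCN5) and KAT2B (PCAF), which are the H3K9 acetyltransferases of the SAGA and ATAC complexes, fell. KAT2A went from 42.3 ± 1.91 to 22.3 ± 1.49 CPM (± SD, n = 3 per group; log2 fold change -0.92, edgeR adjusted p 6.58e-07). KAT2B went from 39.6 ± 2.91 to 25.3 ± 1.84 CPM (log2 fold change -0.65, adjusted p 2.39e-05). KAT14, a further ATAC subunit (ENSG00000149474; chromosome 20, 18138118 to 18188387, plus strand, 10 exons), fell most, from 10.1, 10.1 and 10.4 CPM to 3.45, 4.48 and 4.45 CPM (log2 fold change -1.31, SE 0.12, adjusted p 2.16e-06). KAT14 shares its span with PET117 on the same strand, and reads of the 2 genes may not be separable.

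The MYST family, named after its founding members, held both directions. KAT7 (HBO1), KAT6A (MOZ) and KAT6B (MORF), which acetylate histone H3 in complexes with BRPF and ING proteins, rose by 0.71, 0.64 and 0.61 on the log2 scale (edgeR adjusted p 1.02e-06, 2.43e-06 and 5.35e-06). KAT8 (MOF), the H4K16 acetyltransferase, fell by 0.61 (adjusted p 8.04e-05). KAT5 (TIP60), which acts in DNA repair, had 41.3, 36.9 and 37.7 CPM in siControl and 50.3, 42.5 and 45.1 CPM in siSON (log2 fold change 0.25, adjusted p 0.0134). The KAT5 call was lost under library-size scaling (0.054, adjusted p 0.536) and cyclic loess normalization (0.14, adjusted p 0.135), and without siControl replicate 2 (0.20, adjusted p 0.0786) or 3 (0.22, adjusted p 0.0543).

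Of the 11 zinc-dependent deacetylases, 2 rose, 5 fell and 4 were not called. The share called was 63.6%, against 77.4% of protein-coding genes. Under library-size scaling 1 was higher and 7 lower. HDAC1 and HDAC2 are the catalytic subunits of NuRD, SIN3 and CoREST. HDAC1, with the highest level per kilobase of the class, had 99.4, 99.4 and 98.3 CPM in siControl and 84.7, 91.3 and 88.1 CPM in siSON (log2 fold change -0.17, SE 0.05, edgeR adjusted p 0.0130). HDAC2 had 179.9 ± 8.29 and 182 ± 9.12 CPM (± SD, n = 3 per group; log2 fold change 0.012, adjusted p 0.856), and was called lower under library-size scaling (-0.18, adjusted p 0.0156) and cyclic loess normalization (-0.29, adjusted p 0.000649). HDAC8, a class I enzyme outside these complexes, was not called (-0.026, adjusted p 0.826).

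HDAC3 was the deacetylase that fell most. It is the catalytic subunit of the NCOR and SMRT corepressor complexes. The gene (ENSG00000171720; chromosome 5, 141620876 to 141636870, minus strand, 15 exons; overlapping AC008781.1 on the other strand) had 54.1, 52.4 and 57.8 CPM in siControl and 22.1, 21.7 and 20.1 CPM in siSON. The libraries of each group lay close together, and 38.9% of the control level remained (log2 fold change -1.36, SE 0.07, edgeR adjusted p 2.35e-08). TBL1X, a subunit of the same corepressors, rose from 31.1 ± 0.540 to 85.7 ± 5.90 CPM (± SD, n = 3 per group; log2 fold change 1.46, adjusted p 9.91e-09).

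HDAC6 deacetylates tubulin in the cytoplasm. The gene (ENSG00000094631; chromosome X, 48801377 to 48824982 on the plus strand, with 29 exons) had 28.4, 27.8 and 28.0 CPM in siControl and 16.01, 18.2 and 12.5 CPM in siSON. The siSON values were spread more widely than the siControl libraries and lay below all of them (log2 fold change -0.85, SE 0.12, edgeR adjusted p 5.30e-05). HDAC10, its closest relative and a polyamine deacetylase, had 178, 190 and 123 counts in siControl and 301, 246 and 223 counts in siSON. In CPM these were 2.55, 2.99 and 1.65 against 5.19, 4.77 and 4.39 (log2 fold change 1.00, SE 0.20, adjusted p 0.000837). HDAC10 (chromosome 22, 50245183 to 50251405, minus strand, 20 exons) overlaps MAPK12 on the same strand. HDAC11, the only class IV enzyme, fell by 0.86 (adjusted p 2.44e-05).

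The class IIa enzymes shuttle between nucleus and cytoplasm and bind MEF2 factors. HDAC5 fell by 0.31 (edgeR adjusted p 0.0253), and the call was lost without siControl replicate 1 (-0.25, adjusted p 0.0709), siSON replicate 2 (-0.30, adjusted p 0.0688) or siSON replicate 3 (-0.19, adjusted p 0.110). HDAC9 had 38.5, 22.5 and 24.6 CPM in siControl and 46.9, 38.6 and 35.0 CPM in siSON. Its siControl replicate 1 lay among the siSON libraries, and the rise (0.49, SE 0.19, adjusted p 0.0447) was not called by DESeq2 (adjusted p 0.0939). Without siControl replicate 1 it was 0.75, and the call was lost without any one of the other 5 libraries (0.33 to 0.60). HDAC7 was not called (-0.14, adjusted p 0.0650) although its groups did not overlap, and was called lower under library-size scaling (-0.34, adjusted p 0.000975), under cyclic loess normalization (-0.41, adjusted p 0.000315) and without replicate 1 of either group (-0.20 for siControl, adjusted p 0.0313; -0.16 for siSON, adjusted p 0.0435). HDAC4 had 3.91 ± 0.794 and 3.87 ± 0.545 CPM (± SD, n = 3 per group) and was not called (adjusted p 0.943).

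The sirtuins, deacylases that consume NAD, held the largest fall and the largest rise of all 68 genes. SIRT2, mostly cytoplasmic and active on tubulin and on H4K16 in mitosis (ENSG00000068903; chromosome 19, 38878555 to 38899862, minus strand, 16 exons; sharing its span with NFKBIB on the other strand), had 41.6, 40.5 and 37.8 CPM in siControl and 9.13, 10.5 and 8.97 CPM in siSON. In siSON 23.8% of the control level was left (log2 fold change -2.07, SE 0.09, edgeR adjusted p 5.80e-09). SIRT6, a nuclear enzyme of H3K9 and H3K56 that acts at telomeres and in DNA repair (ENSG00000077463; chromosome 19, 4174109 to 4182604, minus strand, 8 exons), had 17.3, 16.9 and 16.2 CPM in siControl and 51.4, 48.2 and 49.5 CPM in siSON. This was a 2.96-fold rise of the mean (log2 fold change 1.57, SE 0.07, adjusted p 7.23e-09).

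SIRT7, the nucleolar sirtuin, rose from 25.7 ± 1.503 to 45.8 ± 2.77 CPM (± SD, n = 3 per group; log2 fold change 0.83, edgeR adjusted p 1.46e-06) and overlaps MAFG on the same strand. SIRT1, the nuclear deacetylase of p53, fell from 47.9 ± 2.17 to 30.3 ± 2.61 CPM (log2 fold change -0.66, adjusted p 1.32e-05). The 3 mitochondrial sirtuins differed. SIRT3 (ENSG00000142082; chromosome 11, 215458 to 236931, minus strand, 7 exons; overlapping PSMD13 on the other strand) had 8.58, 9.86 and 9.42 CPM in siControl and 3.46, 3.68 and 3.54 CPM in siSON (log2 fold change -1.38, SE 0.11, adjusted p 6.19e-07). SIRT4 and SIRT5 were not called (-0.14, SE 0.36, adjusted p 0.737; and -0.037, SE 0.12, adjusted p 0.793), and SIRT4 was counted only 37 to 95 times in a library.

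The make-up of a class by gene therefore differed between the groups even where its total differed less. Per kilobase of annotated exon, SIRT6 made up 19.4% to 19.8% of sirtuin CPM in the siControl libraries and 48.6% to 51.4% in the siSON libraries. SIRT2 went from 20.4% to 21.3% down to 4.01% to 4.73%, and SIRT1 from 33.8% to 35.2% down to 16.8% to 19.96%. The summed sirtuin level was 29.8 to 31.4 CPM per kilobase in siControl and 35.6 to 35.9 in siSON. Among the acetyltransferases, CREBBP and EP300 went from 8.05% and 9.39% (means of 3) to 16.1% and 15.998%, while KAT2A and KAT2B went from 21.9% and 13.7% to 10.6% and 8.003%. Among the zinc-dependent deacetylases, HDAC1 held the largest share in both groups, 33.7% and 36.4%, and HDAC3 went from 15.97% to 7.54%. The rank of HDAC1 depends on the length used. Without it HDAC2 was higher (179.9 against 99.0 CPM in siControl), but it has 15461 annotated exon bases against 3963. Ranks between genes per kilobase rest on merged exons, which may not match the transcripts expressed. These shares are a description of RNA levels and say nothing of protein or enzyme activity.

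**Figure D3:**
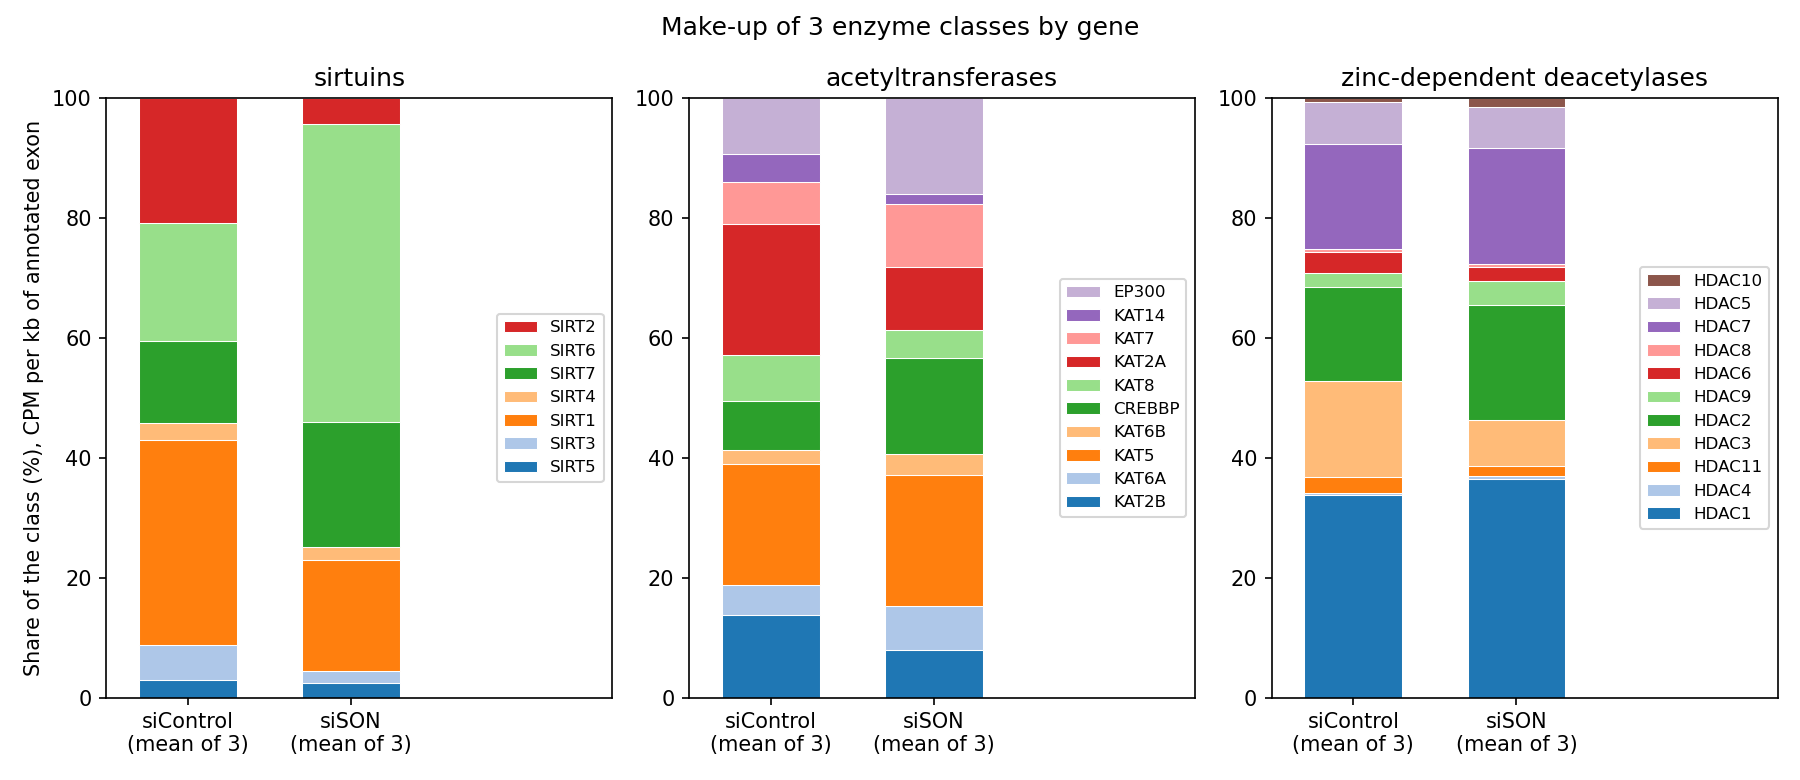
Share of each gene in the summed CPM per kilobase of annotated exon of its class (percent, mean of 3 libraries), for siControl and siSON, in the sirtuins, the acetyltransferases and the zinc-dependent deacetylases. SIRT6 grows from 19.6% to 49.8% of the sirtuins, while HDAC1 remains the largest part of the deacetylases by this measure, which depends on annotated exon length.

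The subunits that carry these enzymes, and enzymes of the same kind outside the naming rule, were taken from 5 lists written from general knowledge, and 119 of 120 listed genes were found and tested. Of these, 98 were called, 60 higher and 38 lower, with 45 higher and 53 lower under library-size scaling. The share called was 82.4%, near the 77.4% of protein-coding genes. Their median log2 fold change was 0.21. Of the 33 subunits of the NuRD, CoREST, SIN3 and NCOR corepressors, 15 were higher and 10 lower (75.8% called). Under library-size scaling 10 were higher and 14 lower. RCOR2, a CoREST subunit, had 0.387, 0.252 and 0.268 CPM in siControl and no counts in any siSON library. On the same TMM scale a floor of 3 counts was 0.0590 CPM in siSON replicate 3, which is below each siControl value. RCOR2 passed the filter on low counts only through the siControl libraries, so its test is not given. The counts above of 98 called, 38 lower and 10 lower include it.

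Of the 42 subunits of the SAGA, ATAC, TIP60, MOZ and MOF acetyltransferase complexes, 24 were higher and 10 lower. This was 81.0% called, against 77.4% of protein-coding genes. The ATXN7 entry among the 42 had only 1 to 13 counts in a library and was not called. A second gene named ATXN7 overlaps it on the same strand. Under library-size scaling 18 were higher and 16 lower. MBTD1, a TIP60 subunit that reads H4K20 methylation, rose from 10.6 ± 0.580 to 24.2 ± 1.38 CPM (± SD, n = 3 per group; log2 fold change 1.19, edgeR adjusted p 2.24e-07), and DMAP1, another TIP60 subunit, fell from 42.4 ± 4.07 to 16.2 ± 1.56 CPM (log2 fold change -1.39, adjusted p 1.78e-07). MBTD1 overlaps AC005839.1 and AC006141.1 on its own strand. Of 22 further methyl and acetyl enzymes, 12 were higher and 8 lower (90.9% called), with 9 and 10 under library-size scaling. JMJD6, a JmjC hydroxylase of splicing factors, rose by 1.21 (adjusted p 2.40e-08), and NAA40, which acetylates the amino terminus of histones H4 and H2A, fell by 1.36 (adjusted p 3.57e-08).

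Gene structure was compared with the change because it was not used to choose the genes. Across the 13008 protein-coding genes tested, genes with short introns and GC-rich transcripts tended to be lower in siSON: Spearman's rho of the log2 fold change was 0.25 with the median intron length (12699 genes with introns) and -0.21 with transcript GC content (13003 genes). Across the 68 enzymes the same values were -0.0037 and 0.091. With gene span the enzymes went the same way as other genes (rho 0.15, against 0.23). The median log2 fold change was -0.16 in the 34 enzymes of shorter span and 0.16 in the 34 of longer span. All 6 falls of at least 2-fold were among the shorter, and so were 4 of the 6 rises. The cut was 50340.5 bases, and KAT14 lay just under it at 50270. Of protein-coding genes, 1957 of 8098 at or below this cut and 500 of 4910 above it had a log2 fold change of -1 or lower. With the number of exons rho was 0.19, against 0.045. Of the 6 enzymes that fell at least 2-fold, 5 were among those with fewer exons, as were 3 of the 6 that rose. Genes share libraries and are not independent replicates, so these are given without a test. With a limit of 500 bases on the median intron, chosen after the values were seen, 18 enzymes had short introns, and 9 of them were higher, 8 lower and 1 not called. Among the 2119 protein-coding genes under the same limit, 22.7% were higher and 61.2% lower. Both sets of counts are for TMM scaling. Under library-size scaling and under cyclic loess, the calls of KAT5, KMT2B and SETD1A as higher were lost. HDAC7, the 1 not called, was called lower under both of these settings.

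The 9 short-intron enzymes that rose were KAT5, KMT2D, SETD1A, SETD6, KDM6B, SIRT7, KMT2B, KMT5C and HDAC10, and the 8 that fell were HDAC3, EHMT2, HDAC6, MEN1, KAT8, KAT2A, HDAC5 and SIRT2. KDM6B and EHMT2 show the spread: their median introns were 102 and 131 bases, and their log2 fold changes were 0.97 and -1.74. SIRT6 and SETD1B, the largest rises, have transcripts of 64.9% and 64.8% GC, and SIRT2 and EHMT2, the largest falls, have 59.0% and 60.6%. KDM4D and KAT14 fell with median introns far above the limit. Intron removal itself cannot be read from counts per gene.

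**Figure D4:**
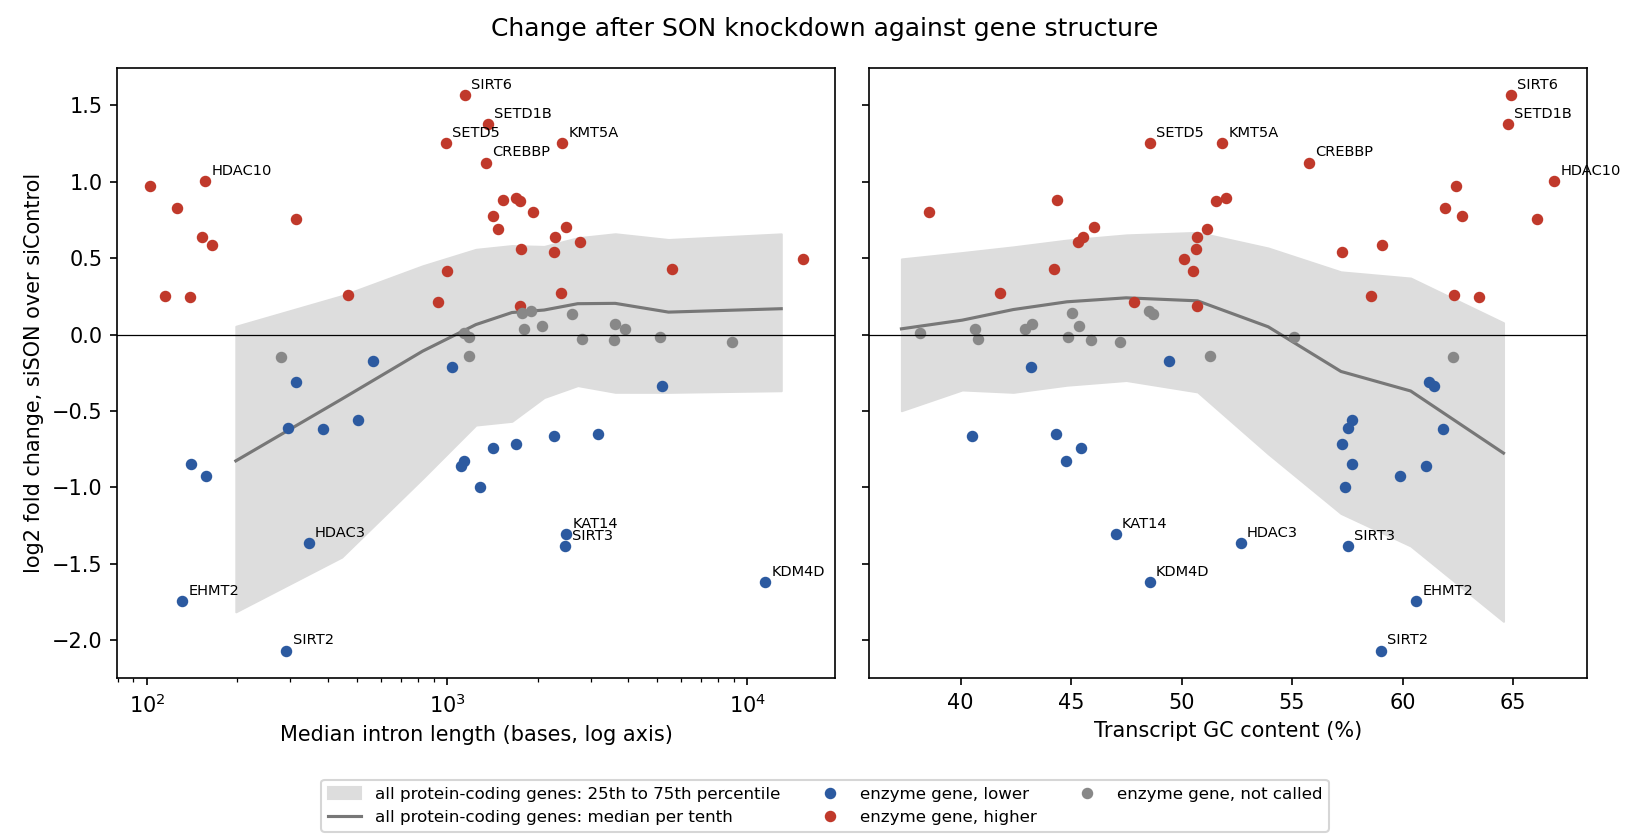
Log2 fold change of siSON over siControl against the median intron length (left, log axis) and the GC content (right) of the representative transcript, for the 68 enzymes (points) and for protein-coding genes in 10 bins of equal size (line, median; band, 25th to 75th percentile). Enzymes with introns under 500 bases lie on both sides of 0, 9 called higher and 8 called lower under TMM scaling. The median of protein-coding genes in the bin of shortest introns is -0.83.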

How the data were processed

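The table deposited by the authors holds raw read counts (whole numbers, no normalization) for each gene in the 6 libraries. The submitters' processing notes name cutadapt 1.16, STAR 2.5.2a, featureCounts 1.6.2, DESeq2 1.28.1 and the build hg38; the annotation release, strand setting and treatment of multi-mapping reads are not given in the sources used here. All 58735 identifiers are in GENCODE release 29 of GRCh38, which gave positions, exons, introns, GC content and overlaps. Without a stated strand setting, reads of genes that overlap cannot be told apart: 23 members share a span with a gene on the same strand and 42 with one on the other.

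Columns were matched to libraries by title. Counts were fitted in R 4.3.3 with edgeR 4.0.16: filterByExpr (minimum count 10), TMM factors, robust quasi-likelihood fit with group alone, Benjamini-Hochberg adjustment over all 16591 genes tested, calls at an adjusted p under 0.05. SEs come from the size of the log2 fold change over the root of its F statistic. CPM used TMM-scaled library sizes; levels per kilobase used the merged length of all annotated exons. Precision differs with depth: 3 counts were 0.0430 to 0.0550 CPM of the library totals before TMM scaling. This floor reflects counting depth only, and not the spread between libraries. The fit was tested on simulated data with few genes changed, as many up as down, which does not test the choice of scaling. Alternatives used DESeq2 1.42.0, limma 3.58.1 (voom; cyclic loess), other scalings and filters, omitted replicates and a replicate block.

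Values by library were given for SON, KMT5A, HDAC6, MEN1, each member called at least 2-fold changed, and in each class the member with the smallest adjusted p and that with the highest level per kilobase over the 6 libraries (EZH1, HDAC9 and 4 partner subunits by library were added after their values were seen). Of each partner list, the called genes with the largest rise and fall and 6 core subunits were named. The members, classes and lists were chosen with earlier results of these data known.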

Additional observations from a re-analysis of the deposited data

How the results depend on the processing

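Of the 68 genes tested, 43 kept their direction and their side of the threshold under all 14 alternatives, and all 43 were called genes. With 2-fold as a further limit 12 of the 53 calls stand, fewer by construction. Calls numbered 48 to 53 without 1 library, 52 with DESeq2 and 53 with limma-voom. SON fell under every alternative. The H3K4 class had 5 calls in place of 8 under library-size scaling and also under cyclic loess, and the LSD family 2 in place of 1 under cyclic loess. Under cyclic loess the sign turned for HDAC2 (-0.29), HDAC4 (0.34), HDAC8 (0.24), KDM4C (0.051), KDM5A (-0.22), KMT2C (-0.019), KMT5B (-0.0065), SETD2 (-0.14), SETD3 (-0.10), SIRT4 (0.35) and SIRT5 (0.27). Under library-size scaling it turned for HDAC2 (-0.18), KDM1B (-0.063), KDM4A (-0.011), KDM5A (-0.16), KMT2C (-0.056), KMT5B (-0.16), SETD2 (-0.13), SETD3 (-0.14) and SETD4 (-0.043), and with a mean count of at least 50 for HDAC2 (-0.045), KDM5A (-0.0199) and KMT5B (-0.017). Of these genes only KDM4A was called in the first place; the cause was not tested. Without 1 library the ranges that crossed 0, none of them of a called gene, were -0.031 to 0.066 for HDAC2, -0.18 to 0.13 for HDAC4, -0.0599 to 0.031 for HDAC8, -0.089 to 0.068 for KDM3A, -0.15 to 0.022 for KDM4C, -0.013 to 0.075 for KDM5A, -0.0601 to 0.092 for KMT5B, -0.024 to 0.10 for SETD3, -0.48 to 0.10 for SIRT4 and -0.10 to 0.034 for SIRT5.

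The replicate numbers are shared by both groups, but the labels do not say what a number stands for. The main fit therefore had no replicate block. Deviations of same-numbered libraries correlated at 0.19, 0.05 and 0.12, and each library correlated best with its own number. Whether the numbers pair the libraries is not settled. With the number as a replicate block, 12313 of all genes were called in place of 11888, and 54 members in place of 53, 31 higher and 23 lower, all 53 among them; the one added was HDAC7 (-0.15, adjusted p 0.0219). SIRT4 and KDM4D, with 37 to 95 and 25 to 141 counts in a library, were counted least and had SEs of 0.36 and 0.23. HDAC9, far better counted, had an SE of 0.19.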
